A study of Aspergillus niger with 6 samples.

Results

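The genes described here encode enzymes that break down the branched-chain amino acids valine, leucine and isoleucine, and enzymes that handle propionate, in the filamentous fungus Aspergillus niger. Members were the genes whose KEGG annotation in the deposited table places them in the degradation pathway of those amino acids or in propanoate metabolism. Genes with a short-chain dehydrogenase domain (adh_short or adh_short_C2) and 1 aminotransferase (protein 1148631) were left out. This gave 86 members among 11910 genes, 64 in the amino acid pathway and 35 in propanoate metabolism, with 13 in both. The members carry 38 different product names, and 20 of these names belong to 1 member each. Expression was measured by RNA sequencing in a strain that lacks rpnR, described by the series as a predicted transcription factor gene under FlbA, and in its control strain MA234.1. Further alleles of either strain are not stated. Conidia of each strain were grown for 16 h at 30 °C in shaken medium with 1% glucose, and the mycelium was then held for 4 h in minimal medium with 25 mM xylose. The labels name 3 libraries per strain (6 in all), while the design text speaks of duplicates.

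The table gives 1 value per gene and strain, taken as the authors' FPKM (fragments relative to transcript length and sequencing depth), and no value per library. No standard deviation can therefore be attached to any value, the depth is unknown, and no replicate can be set beside another. A gene was called changed where its q-value in the authors' deposited table was under 0.05. A log2 ratio here divides the deletion strain by the control after 1 is added to each FPKM, so differences of low genes come out too small. Folds divide the FPKM themselves. Values are relative within a strain, so more transcript of a gene, less of all other transcripts, and a different make-up of the mycelium cannot be told apart. FPKM summed over all genes came to 828095 for the control and 872090 without rpnR, and the median log2 ratio over all tested genes was 0.02. The deleted gene was not matched to a row and is not analysed here.

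Breakdown of the branched-chain amino acids begins the same way for all 3 amino acids. An aminotransferase removes the amino group, and a mitochondrial 2-oxoacid dehydrogenase complex turns the product into an acyl-CoA. After that the routes part: leucine is carboxylated by methylcrotonyl-CoA carboxylase and ends as acetyl-CoA and acetoacetate, while valine and isoleucine yield propionyl-CoA. Between these steps stand dehydrogenases, hydratases and thiolases of the kind used in fatty acid oxidation. In Aspergillus nidulans, propionyl-CoA is known to be oxidised through the methylcitrate cycle, in which it is joined to oxaloacetate and released as pyruvate and succinate.

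Of the 86 members, 74 were tested by the authors, and 18 of these were called, 15 higher and 3 lower in the deletion strain. Over all 9234 tested genes 6.54% were called, 3.29% higher and 3.25% lower, against 20.3% higher and 4.05% lower among the tested members. Values lay above the control for 57 of the 74 tested members and below it for 17, with a median log2 ratio of 0.49. Over all tested genes 51.3% lay above the control, and in several neighbouring pathways the share was close to the members' 77.0%. The 15 members that rose did so by 2.03-fold to 3.13-fold, with a median of 2.48-fold. They rose from between 3.08 and 66.7 FPKM in the control to between 8.69 and 165 FPKM. The 12 members that were not tested had at most 1.21 FPKM in either strain, and 2 of them were listed at 0 in both strains. Many calls lay close to the threshold: at a q under 0.01, 4 members were called (3 higher and 1 lower), where 2.59% of all tested genes were called. By the authors' flag, which asks for a fold of at least 2 and a value of 10 or more beside the q, 16 members were changed, against 5.46% of all tested genes.

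**Figure D1:**
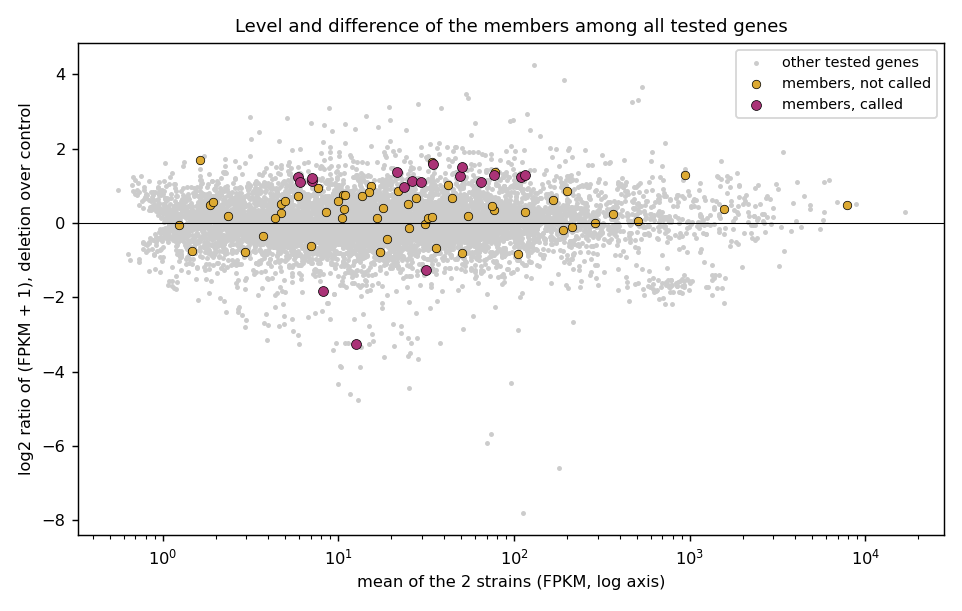
Each point is 1 tested gene, with the mean of the 2 strains in FPKM on the x axis (log axis) and the log2 ratio of FPKM + 1, deletion strain over control, on the y axis. Other tested genes are grey, uncalled members yellow and called members purple. The 15 members called higher lie between log2 ratios of 0.98 and 1.59, and the 3 called lower between -1.25 and -3.26. Calling by q selects for large ratios, and uncalled members such as 1004906 (1.37) and 1148193 (1.31) lie in the same upper range.

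The members called higher covered some adjacent steps of the leucine and valine routes, as well as activation of propionate. Other steps of these routes held no call. They include the aminotransferase, isovaleryl-CoA dehydrogenase, hydroxymethylglutaryl-CoA lyase and 3-hydroxyisobutyryl-CoA hydrolase. The rises included genes for parts of the branched-chain 2-oxoacid dehydrogenase, methylcrotonyl-CoA carboxylase, methylglutaconyl-CoA hydratase, methylmalonate-semialdehyde dehydrogenase and propionyl-CoA synthetase. By product, 6 of 22 tested members (27.3%) assigned to steps of a single amino acid rose and none fell (median log2 ratio 0.57). Values of 4 of the 22 lay below the control. Of all tested genes 3.29% rose and 3.25% fell, so the absence of falls among the 22 is not far from that background. These 22 include 2 genes for hydroxymethylglutaryl-CoA synthase and 3 for 3-oxoacid CoA-transferase, which are not particular to leucine. Of these, 1 gene rose, a CoA-transferase. The 2 genes named methylmalonate-semialdehyde dehydrogenase, of which 1 rose, are also named for malonate semialdehyde and so not only for valine. At the acyl-CoA steps shared with fatty acid oxidation, 4 of 14 rose and 2 fell (median 0.51). The difference between these kinds of step was not tested.

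**Figure D2:**
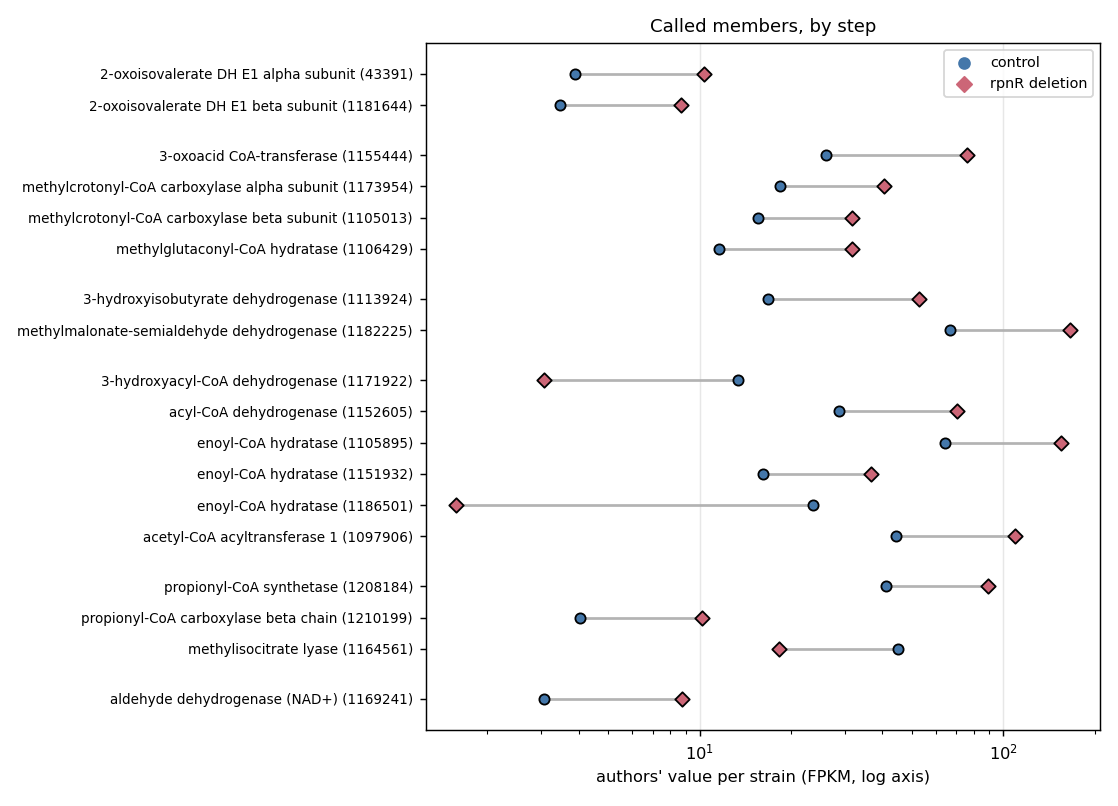
The 18 called members by step, each with the authors' value in the control (circle) and in the deletion strain (diamond) in FPKM on a log axis. Gaps separate, from the top, the branched-chain 2-oxoacid, leucine, valine, shared acyl-CoA, propionate and methylcitrate, and aldehyde dehydrogenase steps. The lines to the right span 2.03-fold to 3.13-fold, and 3 lines run to the left. Only called members are drawn, which leaves out small differences.

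The first common step showed no call. Of 7 genes named branched-chain amino acid aminotransferase, the enzyme that works in both synthesis and breakdown of these amino acids, 5 were tested, with 2 values above and 3 below the control. The most abundant, 1093795, had a level of 135 FPKM in the control and 75.4 FPKM without rpnR (q = 0.174 in the authors' deposited table). The next, 1184874, was at 21.8 and 15.98 FPKM. Values of 45907 (10.1 and 17.3 FPKM) and 1156575 (3.74 and 6.18 FPKM) went the other way, and 1118321 was at 1.28 and 1.19 FPKM. The untested 1090254 and 43811 had at most 0.350 FPKM. The aminotransferase left out by the rule, 1148631, which the table places in secondary metabolism cluster 2, fell from 40.2 to 5.10 FPKM.

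The second common step held 2 rises. The branched-chain 2-oxoacid dehydrogenase commits the carbon skeleton to breakdown and consists of E1, E2 and E3 components. The E1 alpha subunit (43391) rose from 3.88 to 10.3 FPKM, or 2.66-fold, with a q of 0.0355 in the authors' deposited table. The E1 beta subunit (1181644), its partner in the decarboxylating enzyme, rose from 3.47 to 8.69 FPKM, or 2.50-fold (q = 0.0479 in the authors' deposited table). The 2 subunits thus lay at like levels in either strain. The E2 transacylase (1155703), which passes the acyl group to coenzyme A, was at 4.20 and 7.58 FPKM, a ratio of 1.81, and was not called (q = 0.244 in the authors' deposited table). The E3 component, dihydrolipoamide dehydrogenase (1144109), is shared with the pyruvate and 2-oxoglutarate dehydrogenases. Its level was far above those of the other components, at 337 FPKM in the control and 397 FPKM without rpnR, and it was not called. A second gene of that name (1183259) was at 0.687 and 1.21 FPKM and was not tested.

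Of members assigned to the leucine route, 4 of 11 tested (36.4%) rose and none fell, with a median log2 ratio of 0.63. The shares of all tested genes were 3.29% higher and 3.25% lower, so the absence of falls is not far from the background. The 11 include 2 synthase and 3 CoA-transferase genes, described below, that are not particular to leucine, and 1 of these rose. Methylcrotonyl-CoA carboxylase, the biotin enzyme particular to leucine, has 2 subunits. Its biotin-carrying alpha subunit (1173954) rose from 18.3 to 40.4 FPKM, or 2.21-fold, and its beta subunit (1105013) by 2.03-fold, from 15.6 to 31.7 FPKM (q = 0.0233 and 0.0431 in the authors' deposited table). As with the 2 subunits of E1, both were called and their levels were close in either strain. The E2 component lay near E1 in level but was not called, and E3 lay far above and was not called. Methylglutaconyl-CoA hydratase (1106429), which acts after the carboxylase, rose from 11.6 to 31.6 FPKM, or 2.74-fold (q = 0.00483 in the authors' deposited table).

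The steps on either side of this block were not called. Isovaleryl-CoA dehydrogenase, which precedes the carboxylase, is the name of 2 members: 1184080 was at 7.84 and 14.0 FPKM and 1115661 at 4.14 and 5.24 FPKM. Hydroxymethylglutaryl-CoA lyase (1121761), which ends the route by splitting off acetoacetate, was at 15.4 and 20.7 FPKM. Its gene model also carries a CLN3 domain and 11 predicted transmembrane segments, and what part of its value belongs to the lyase was not tested. Hydroxymethylglutaryl-CoA synthase works in the opposite sense and feeds sterol synthesis. Both genes of that name lay below the control, 1106288 at 65.2 and 36.6 FPKM and 1134654 at 3.98 and 1.91 FPKM, and neither was called.

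Acetoacetate is activated by 3-oxoacid CoA-transferase, the name of 3 members. Of these, 1155444 rose from 26.1 to 75.7 FPKM, or 2.90-fold, with the lowest q of the authors' deposited table (0.0027). The more abundant 1116605 was at 131 and 203 FPKM and 1162203 at 31.7 and 30.9 FPKM, neither called. Under 1 product name, ratios thus ranged from 0.974 to 2.90.

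In the valine route, 2 of 10 tested members rose and none fell, and the control was the lower strain for 9 (median log2 ratio 0.44). Of all tested genes 3.29% rose, 3.25% fell and 51.3% lay above the control. The absence of falls among 10 genes is thus not far from the background. The largest rise by log2 ratio among all called members was that of a 3-hydroxyisobutyrate dehydrogenase (1113924), which oxidises the free acid formed from valine. It rose from 16.8 to 52.6 FPKM, or 3.13-fold (q = 0.0027 in the authors' deposited table). The other 6 genes of that name were not called and ranged from 3.75 to 26.3 FPKM in the control. Among them 1100218, at 9.85 and 20.7 FPKM, had the lowest q of any uncalled member (0.0952 in the authors' deposited table). The following enzyme, methylmalonate-semialdehyde dehydrogenase, releases propionyl-CoA. The full product name also gives malonate-semialdehyde dehydrogenase, so it is not particular to valine. The gene 1182225 of that name rose from 66.7 to 165 FPKM, or 2.48-fold (q = 0.0158 in the authors' deposited table). Another, 201822, with the same product name was at 9.90 and 11.0 FPKM. The hydrolase that precedes both steps, 3-hydroxyisobutyryl-CoA hydrolase (1100425), had levels of 103 and 127 FPKM, with no call.

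The isoleucine route was represented by 1 member, a short or branched chain acyl-CoA dehydrogenase (1102292), at 33.9 and 54.9 FPKM and not called. A gene named for 3-hydroxy-2-methylbutyryl-CoA dehydrogenase (1170195), a later isoleucine step, has a short-chain dehydrogenase domain and is not a member. It rose from 7.90 to 32.9 FPKM.

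**Figure D3:**
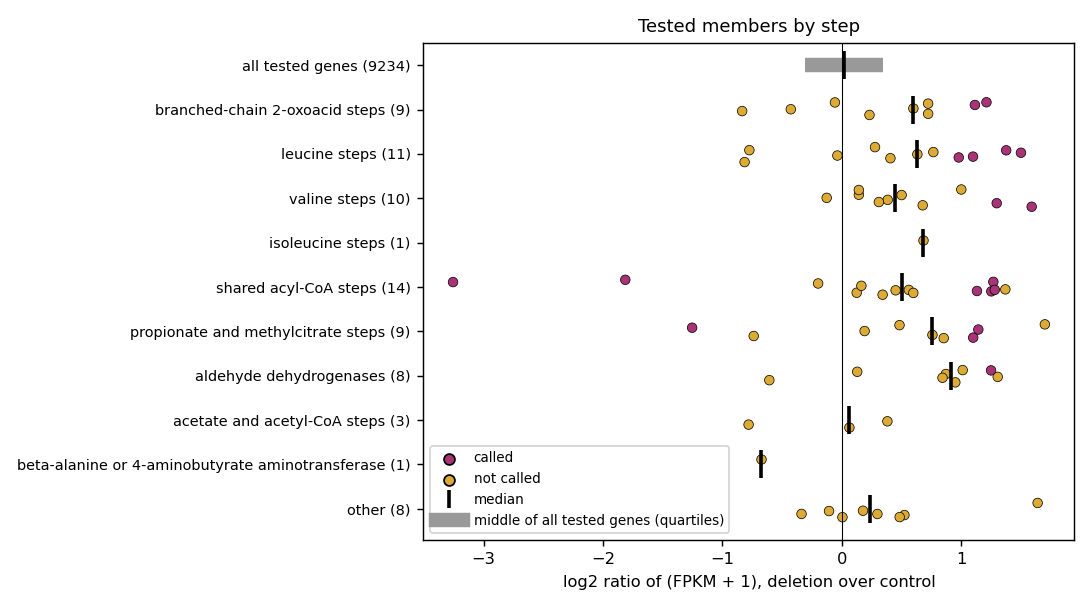
Log2 ratios of FPKM + 1, deletion strain over control (x axis), for the tested members in each group of steps, with the number tested in brackets. Purple points are called, yellow points are not, and black bars mark medians. The grey bar spans the quartiles of all tested genes, from -0.31 to 0.34, and the medians of 7 groups lie to the right of it.

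Acyl-CoA dehydrogenases, enoyl-CoA hydratases, 3-hydroxyacyl-CoA dehydrogenases and thiolases are the shared steps, named without an amino acid. Of their 14 tested genes, 4 rose and 2 fell. Of 4 genes named enoyl-CoA hydratase, which adds water to the double bond, 1105895 rose from 64.5 to 155 FPKM, and so did 1151932, at 16.2 FPKM in the control and 36.7 FPKM in its partner strain. Another, 1186501, fell from 23.7 to 1.58 FPKM (log2 ratio -3.26), the largest fall of any member. Genes with 1 product name thus moved in opposite directions. The table places 1186501 in secondary metabolism cluster 49, of whose 16 tested genes 5 fell, 1186501 included, and none rose. Over all tested genes 3.25% fell and 3.29% rose.

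The other rises at shared steps came to 2.46-fold for both an acyl-CoA dehydrogenase and a thiolase. The acyl-CoA dehydrogenase 1152605 rose from 28.7 to 70.5 FPKM. Its gene model also carries Sad1_UNC and Spo12 domains of other protein families, and their part in its value was not tested. The second gene of that name, 1146501, had levels of 67.8 and 86.3 FPKM, with no call. The thiolase 1097906, which cleaves the acyl chain, rose from 44.3 to 109 FPKM. The other 3 genes with its product name, acetyl-CoA acyltransferase, were at 31.0 to 63.4 FPKM in the control and 33.9 to 87.1 FPKM without rpnR.

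A 3-hydroxyacyl-CoA dehydrogenase (1171922) fell from 13.3 to 3.08 FPKM. It carries the NAD-binding domain of that family (3HCDH_N) and not the second domain (3HCDH) that the other 2 genes of this name have. Of those, 44186 was at 1.37 and 2.49 FPKM and 1154557 was listed at 0 in both strains. The most abundant shared-step gene, the acetyl-CoA acetyltransferase 1166458, was at 203 and 177 FPKM. Its partner in name, 1004906, was at 42.9 and 113 FPKM. That ratio of 2.62 lies within the range of the members that rose, but its q in the authors' deposited table was 0.345.

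**Figure D4:**
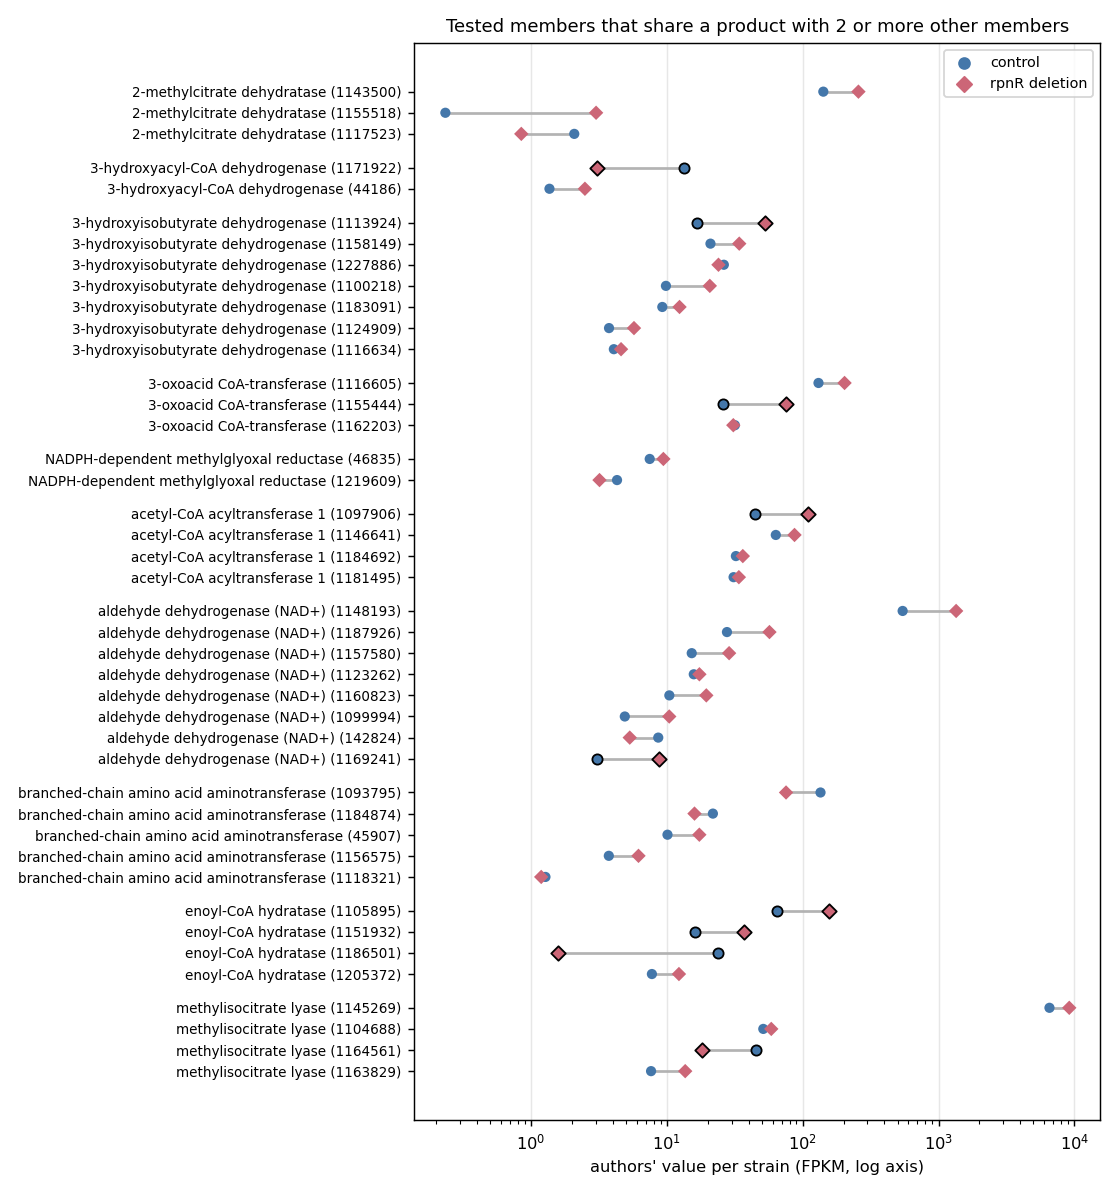
Tested members whose product name is held by at least 3 members, with the authors' value in the control (circle) and the deletion strain (diamond) in FPKM on a log axis. Black outlines mark called genes. Within most names 1 gene or none is called, and under enoyl-CoA hydratase 2 genes rose and 1 fell.

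Among propionate and methylcitrate steps, 2 of 9 tested members rose and 1 fell (median log2 ratio 0.76), against 3.29% and 3.25% of all tested genes. Propionyl-CoA synthetase (1208184), which activates free propionate, rose from 41.0 to 89.2 FPKM, or 2.17-fold (q = 0.0492 in the authors' deposited table). A gene named propionyl-CoA carboxylase beta chain (1210199), in animals the carboxylating enzyme for propionyl-CoA, rose from 4.04 to 10.1 FPKM, or 2.51-fold (q = 0.0335 in the authors' deposited table). Both are the sole bearers of their product name among the members.

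Among members named for the methylcitrate cycle, the dehydratases and lyases, none was called higher. Of 3 genes named 2-methylcitrate dehydratase, the abundant 1143500 was at 142 and 257 FPKM, a ratio of 1.81 (q = 0.195 in the authors' deposited table). The other dehydratase genes, 1117523 and 1155518, were at 2.08 and 0.848 FPKM and at 0.234 and 3.01 FPKM. Methylisocitrate lyase splits the cycle's product into pyruvate and succinate, and belongs to the same protein family as isocitrate lyase of the glyoxylate cycle. Of 5 genes with that name, 1164561 fell from 45.0 to 18.3 FPKM (q = 0.0307 in the authors' deposited table). The gene 1145269 was by far the most abundant member, at 6559 FPKM in the control and 9171 FPKM without rpnR, and was not called. The rest were 1104688 at 51.3 and 58.7 FPKM, 1163829 at 7.65 and 13.6 FPKM, and 42353, at 0.131 FPKM in the control and listed at 0 without rpnR.

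Genes named citrate synthase, a family to which fungal methylcitrate synthases belong, are not members and were looked at after their values were seen. Of 4 such genes 1 rose, 1143506, from 66.2 to 163 FPKM. The most abundant, 1141371, was at 1063 and 1216 FPKM.

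Aldehyde dehydrogenases oxidise the semialdehydes and aldehydes of several pathways and are named without an amino acid. Of 8 tested genes in this group 7 lay above the control, with a median log2 ratio of 0.91. A single gene of the 8 rose, against 3.29% of all tested genes. That gene, 1169241, rose from 3.08 to 8.72 FPKM and lies in secondary metabolism cluster 79. Of the 4 tested genes of this cluster 1 rose, 1169241 itself, and 1 fell. The most abundant aldehyde dehydrogenase, 1148193, was at 544 FPKM in the control and 1348 FPKM without rpnR. Its ratio of 2.48 is as large as the median of the members that rose, but it was not called (q = 0.119 in the authors' deposited table). The gene 1187926 was at 27.7 and 56.9 FPKM, 1157580 at 15.2 and 28.7 FPKM, and 1160823, whose model also holds a sugar transporter domain, at 10.4 and 19.5 FPKM. The gene 142824, at 8.64 and 5.33 FPKM, was the member of this group below the control. Of 12 genes in the group, 4 were not tested.

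No member at the remaining steps was called. Acetyl-CoA synthetase (1146630), which activates acetate, was at 1359.6 and 1772 FPKM, and acetyl-CoA carboxylase (1183000), the first enzyme of fatty acid synthesis, at 497 and 519 FPKM. Acetate kinase (1121944) was at 22.02 and 12.4 FPKM. The 4-aminobutyrate aminotransferase (1145331), which also acts on an amino acid derived from valine, was at 44.5 and 27.5 FPKM. Succinyl-CoA synthetase of the citrate cycle was at 223 and 207 FPKM for its alpha subunit (1145379) and at 289 and 291 FPKM for its beta subunit (1141436). Lactaldehyde reductase (1180719) was at 20.3 and 29.7 FPKM. Of the genes named methylglyoxal reductase, 46835 was at 7.48 and 9.43 FPKM and 1219609 at 4.30 and 3.19 FPKM. Of the other genes, 1158674, named 1-aminocyclopropane-1-carboxylate deaminase, was at 16.0 and 52.1 FPKM with a q of 0.798 in the authors' deposited table.

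Of 21 members at least 2-fold higher in the deletion strain and with 5 FPKM or more in 1 strain, 15 were called and 6 were not (1004906, 1099994, 1100218, 1148193, 1158674 and 1187926). Among all tested genes past the same limits, 284 of 541 were called. Calls were also counted by level, and differences between levels were not tested. The ranges under 5 FPKM and from 100 FPKM hold few members, and their shares called were not far from those of all tested genes. Of 48 tested members with a mean of 5 to 100 FPKM, 33.3% were called, against 6.70% of all tested genes in that range. Of 14 members at 100 FPKM or more, 14.3% were called, against 9.63% of all. None of 12 tested members under 5 FPKM was called by the authors' q, against 3.92% of all (q ran from 0.231 upward in these members).

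Together the members held 1.42% of all FPKM for the control and 1.89% without rpnR. Most of this was 1 gene, the methylisocitrate lyase 1145269, with 0.792% and 1.05%. The 15 members that rose made up 0.0440% and 0.103%.

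Features outside expression were listed for few members, and their shares over all genes were not counted. A secretion signal was predicted for 2 members and transmembrane segments for 6, and 6 members lie in a secondary metabolism cluster. Of the 6 in a cluster, 1090254 and 1169242 were not tested and 2 were called, 1169241 higher and 1186501 lower. The share called over all tested genes was 6.54%.

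Genes of neighbouring pathways, with the members removed, are set beside them as counts. In synthesis of valine, leucine and isoleucine 2 of 20 tested genes rose and 3 fell, and the control was the higher strain for 12 (median log2 ratio -0.25). The 3 that fell were the aminotransferase 1148631 and both genes named 2-isopropylmalate synthase, the first enzyme particular to leucine synthesis. Of the synthases, 1114520 fell from 48.01 to 3.31 FPKM. The other, 1102323, fell from 109 to 50.5 FPKM. The 2 that rose were dihydroxy-acid dehydratase (1128692, from 34.6 to 92.5 FPKM) and 3-isopropylmalate dehydrogenase (1223020, from 13.6 to 49.5 FPKM).

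In fatty acid metabolism 11 of 72 tested genes rose and 3 fell, but without genes that have a short-chain dehydrogenase domain these counts were 2 and 1 of 26. In pyruvate metabolism 6 of 41 rose and 3 fell, or 4 and 3 of 38 without short-chain dehydrogenase domains. The lowest log2 ratio there, -3.51, was that of the 2-isopropylmalate synthase 1114520, which is also counted under synthesis above. In butanoate metabolism 3 of 21 rose, and in tryptophan metabolism 5 of 57 rose. In lysine degradation 1 of 29 rose and 2 fell, and in beta-alanine metabolism 1 of 19 rose and 1 fell. In the citrate cycle 1 of 28 rose and in glyoxylate metabolism 1 of 37, near the 3.29% over all tested genes. In both, the gene that rose is the citrate synthase 1143506. Most values in several of these pathways nonetheless lay above the control, as among the members. This held for 29 of 37 tested genes in glyoxylate metabolism (median log2 ratio 0.50), 18 of 28 in the citrate cycle (0.35) and 55 of 72 in fatty acid metabolism (0.55, but 17 of 26 and 0.09 without short-chain dehydrogenase domains). It also held for 44 of 57 genes in tryptophan metabolism (0.35), 31 of 41 in pyruvate metabolism (0.34) and 15 of 21 in butanoate metabolism (0.18). In lysine degradation (16 of 29) and beta-alanine metabolism (10 of 19) the share was closer to the 51.3% over all tested genes. Isocitrate lyase (1101852) was at 1047 and 1230.3 FPKM and malate synthase (1183487) at 299 and 510.3 FPKM, neither called. Every gene of the ketone body pathway is a member, and many members belong to several pathways (22 also to beta-alanine and 23 also to pyruvate metabolism).

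**Figure D5:**
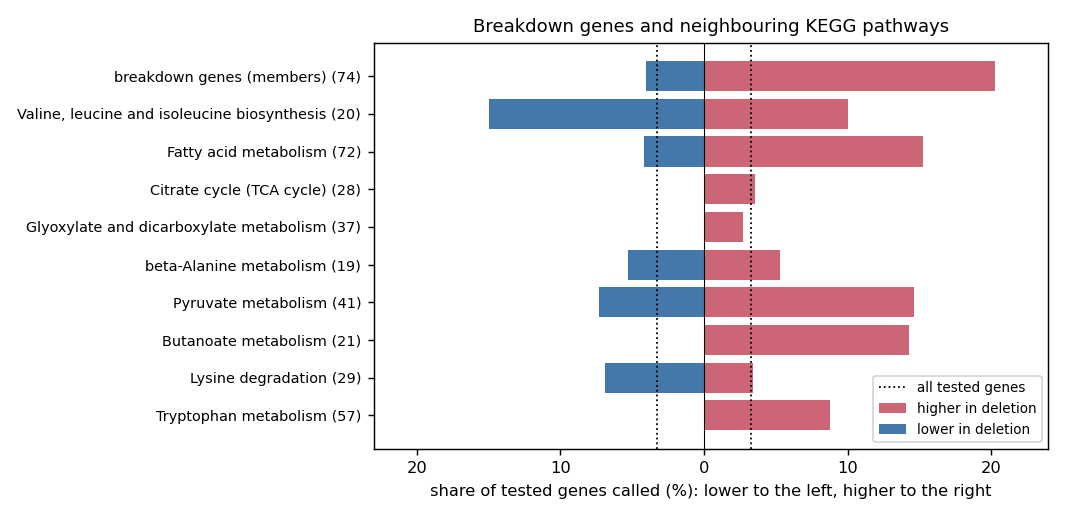
Share of tested genes called higher (to the right) and lower (to the left) in the deletion strain, in percent, for the members and for neighbouring KEGG pathways with the members removed. Brackets give the number tested, and dotted lines mark 3.29% higher and 3.25% lower over all tested genes. The members show 20.3% higher and 4.05% lower.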

How the data were processed

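Per the submitters' processing notes, Trimmomatic, TopHat2, Cufflinks, Cuffdiff 2.2.1 and CASAVA 1.8.3 were used, with roles not stated. No genome build is named. The deposited table holds 1 value per gene and strain, read as the authors' FPKM because Cuffdiff reports that unit, and the authors' q-value for the strains. Genes with a q of 1 (2676 of 11910) were taken as not tested. No value per library was used, so no test was computed, and a call is a q under 0.05. How the authors combined libraries, and how reads shared by genes of like sequence were counted, is not stated.

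Members were found by pathway and domain name and put in 10 groups of steps by product name. Named genes were all called members, the most abundant and most changed of each group, parts of the 2-oxoacid dehydrogenase, methylcrotonyl-CoA carboxylase and the methylcitrate route, and the uncalled member with the lowest q. Other members named give the remaining genes of a product and were chosen after their values were seen. The members, lists and groups were chosen with earlier results of these data known. Python 3.11.15 and pandas 2.3.3 were used, and the counting was tested on simulated data.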

Additional observations from a re-analysis of the deposited data

How the results depend on the processing

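Of 18 called members (15 higher, 3 lower), 4 (3 and 1) had a q under 0.01, the enzymes 1155444, 1106429, 1113924 and 1186501. In propanoate metabolism alone 8 of 32 tested members (25.0%) were called, 6 of them higher. The share called was 24.3% for all tested members and 6.54% for all tested genes. The counts of 18, 15 and 3 stayed within 1.5 times by the authors' flag and for a mean of at least 5 FPKM. They also did so with the rows left out by the rule kept in, and for the branched-chain pathway alone (which gave 2 lower). Leaving out models with a domain of another family (chosen after seeing the data) left them there too. Called genes of fatty acid metabolism came to 14, and to 3 without short-chain dehydrogenase domains (chosen after seeing the data).

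With no spread between replicates at hand, a median was taken as moved beyond 0.1 on the log2 scale. The members' median was 0.49, 0.37 with a pseudocount of 5 and 0.62 for a mean of at least 5 FPKM. With a pseudocount of 5 the group medians came to 0.70 for aldehyde dehydrogenases, 0.36 for 2-oxoacid steps, 0.56 for propionate steps, 0.38 for shared steps and 0.30 for valine steps. A pseudocount of 0.1 gave 0.71 for 2-oxoacid steps, and a mean of at least 5 FPKM gave 0.72 there and 0.77 for leucine steps. The larger pseudocount shrinks ratios of low genes by construction. Among named genes, 1 of 114 values changed sign, that of 1141436, from 0.0057 to -0.0099 when centred on all tested genes. A pseudocount cannot change the sign of a ratio, so this count says little about how stable the values are. Sizes of low genes did move: the log2 ratio of 1155518 was 1.70, 3.22 with a pseudocount of 0.1 and 0.61 with 5. No paired analysis was possible because the table has no value per library, and for the same reason no replicate was left out.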

Other observations

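The members were also split, after their values were seen, by whether other members share their product name, and the difference between the 2 kinds was not tested. Of 17 tested members with a product name of their own, 7 (41.2%) rose and none fell. These are both E1 subunits of the branched-chain 2-oxoacid dehydrogenase, both subunits of methylcrotonyl-CoA carboxylase, methylglutaconyl-CoA hydratase, propionyl-CoA synthetase and the gene named propionyl-CoA carboxylase beta chain. Of 57 tested members that share their name, 8 (14.0%) rose and 3 (5.26%) fell. Over all tested genes 3.29% rose and 3.25% fell, so the absence of falls among the 17 is not far from that background. Of the 18 shared names, 7 held a gene that rose, and 1 of these, enoyl-CoA hydratase, held more than 1.

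Peroxisome and fatty acid degradation genes that are not members were counted after the values were seen. In fatty acid degradation 3 of 29 tested genes rose and none fell, and the control was the lower strain for 25, with a median log2 ratio of 0.41. In the peroxisome pathway 4 of 72 rose and none fell, and the control was the lower strain for 59 (median 0.43). Over all tested genes 3.29% rose and 51.3% lay above the control. The 5.56% that rose in the peroxisome pathway is not far from the first of these shares, while 10.3% rose in fatty acid degradation. The shares above the control, 86.2% in fatty acid degradation and 81.9% in the peroxisome pathway, were higher than the members' 77.0%.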
